A study of Mus musculus with 18 samples.

Results

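A2m encodes alpha-2-macroglobulin, a secreted inhibitor of proteases, and Lrp1 encodes the large endocytic receptor that clears it. They are 2 of the 18585 genes in the table deposited for a study of mouse forepaws. A2m was chosen by its normalized counts, which were much lower in WT arthritis than in WT control, and Lrp1 was taken as its receptor. The levels of A2m in the WT libraries, and of Lrp1 between the 2 WT groups, are therefore given as descriptions without a test. The Sema3b-/- libraries were not used in the choice, and there both genes were tested. The main test shares its estimate of the spread over all groups, so the WT libraries still enter the SE of these tests.

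Alpha-2-macroglobulin traps a protease that has cleaved its bait region, and an internal thioester then binds the captured enzyme covalently. The complex exposes a site that Lrp1 recognises, and the receptor carries it into the cell. Lrp1 belongs to the LDL receptor family and also takes up apolipoprotein E, plasminogen activators with their inhibitors, and several matrix proteases. In joints, alpha-2-macroglobulin is known as an inhibitor of enzymes that degrade cartilage matrix. In rats it is a strong acute phase protein of the liver.

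All mice were C57BL/6, and whole forepaws were used, so the libraries hold the RNA of skin, muscle, bone, cartilage and joint tissue together. The 18 libraries fell into 4 groups, 5 from Sema3b-/- mice with arthritis, 4 from Sema3b-/- control mice, 5 from WT mice with arthritis and 4 from WT control mice. Sema3b encodes a secreted class 3 semaphorin. The labels give neither the model of arthritis, nor age, nor sex, nor which part of Sema3b was deleted, and titles of arthritis and control libraries begin with different words, so that a difference in preparation cannot be told apart from arthritis. RNA was read by CEL-seq, which counts a tag near the 3' end of each RNA, and a level is given as the authors' normalized count, a read count divided by a size factor for the library.

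The libraries held 1732783 to 19464892 reads, with a median of 7279063.5. Sema3b had 0 to 6 reads in each Sema3b-/- library, against 23.7 to 67.5 normalized counts in the WT libraries. Xist and Y-linked genes showed 4 female and 1 male libraries in Sema3b-/- arthritis, 2 and 2 in Sema3b-/- control, 1 and 4 in WT arthritis, and 4 and 0 in WT control. Mitochondrial genes took 15.7% to 24.1% of the counts, except in WT arthritis replicates 1 (39.4%), 2 (27.9%) and 5 (24.8%). Epidermal markers took 0.0563% to 5.35% and skeletal muscle markers 0.213% to 4.55% over the 18 libraries, and no marker gene in the table was at 0 in every library. Some libraries stood apart. Sema3b-/- control replicate 4 had the highest epidermal (5.35%) and skeletal muscle (4.55%) shares of all 18 and the lowest fibroblast share of its group (1.57%). WT arthritis replicates 1 and 2 had monocyte and macrophage markers at 0.0890% and 0.0811%, below the lowest WT control library, at 0.0900%. Without these, in that order, 840 and 1112 genes were called in WT arthritis, against 582 with every library.

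A2m lies on chromosome 6 of mm10 (chr6:121635376-121679227, plus strand, 36 exons) and Lrp1 on chromosome 10 (chr10:127538161-127621148, minus strand, 89 exons), per the GENCODE M21 annotation. An antisense gene, Gm16217, overlaps Lrp1 58387 bases from its 3' end. The table pairs each symbol only with a chromosome. RefSeq's table also lists A2m as a synonym of Pzp, a related inhibitor gene on chromosome 6. The related Pzp, Mug1 and Mug2 have no row under those symbols among the genes of the table. Whether reads of these relatives were counted under A2m was not tested.

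The stretches shown here hold the features that join the pair, taken from the GENCODE M21 transcripts. In A2m the capitals mark the codons of the internal thioester, in exon 24 (chr6:121668072-121668146, plus strand). In Lrp1 they mark the codons of the 2 NPXY motifs in the part of the receptor inside the cell, where adaptor proteins bind. The first lies in exon 88 (chr10:127539278-127539349, minus strand), and the second lies in exon 89, with flanks over 2 exons (chr10:127539034-127539247, minus strand). The data carry no reading of these sites, since the values are tags near the 3' end.
A2m thioester: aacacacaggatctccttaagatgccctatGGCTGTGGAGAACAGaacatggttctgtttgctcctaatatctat
Lrp1 motif 1: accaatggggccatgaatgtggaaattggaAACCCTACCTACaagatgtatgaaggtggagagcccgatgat
Lrp1 motif 2: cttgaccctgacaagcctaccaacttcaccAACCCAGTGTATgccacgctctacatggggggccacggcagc

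In Sema3b-/- forepaws, A2m was lower on average with arthritis, but the difference did not pass the test. A2m had 14.3, 19.9, 12.1, 73.2 and 8.34 normalized counts in Sema3b-/- arthritis replicates 1 to 5, against 40.5, 73.7, 79.5 and 13.2 in Sema3b-/- control replicates 1 to 4. Of the arthritis libraries 4 lay at or under 19.9 and replicate 4 lay among the controls, while control replicate 4 lay among the arthritis libraries. The groups thus overlapped at both ends. A2m averaged 25.5 ± 27.0 in Sema3b-/- arthritis (SD, n = 5) and 51.7 ± 30.9 in Sema3b-/- control (SD, n = 4). The log2 fold change was -1.15 (SE 0.57, 95% interval -2.34 to 0.05), with an adjusted p of 0.194 by limma over all genes tested. That SE comes from a spread estimated over all groups, so the WT libraries that chose A2m enter it. An exact two-sided permutation of the 9 Sema3b-/- libraries alone gave p = 0.190, where 0.0159 is the smallest p possible. In this comparison 12.4% of the 13809 genes tested were called at an adjusted p under 0.05, 6.84% higher and 5.55% lower.

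Whether A2m passed depended on 1 library. Without Sema3b-/- arthritis replicate 4 the log2 fold change was -1.63 and passed the test (limma adjusted p = 0.0458). Without Sema3b-/- control replicate 4 it was -1.68, with an adjusted p of 0.0578. Leaving out each of the 18 libraries in turn gave values from -1.68 to -0.85 and adjusted p from 0.0458 to 0.404. The direction was negative in each of these fits, and the spread of the WT libraries entered the SE of each. In the authors' deposited table the log2 fold change is -1.03 (SE 0.59, adjusted p 0.308).

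**Figure D1:**
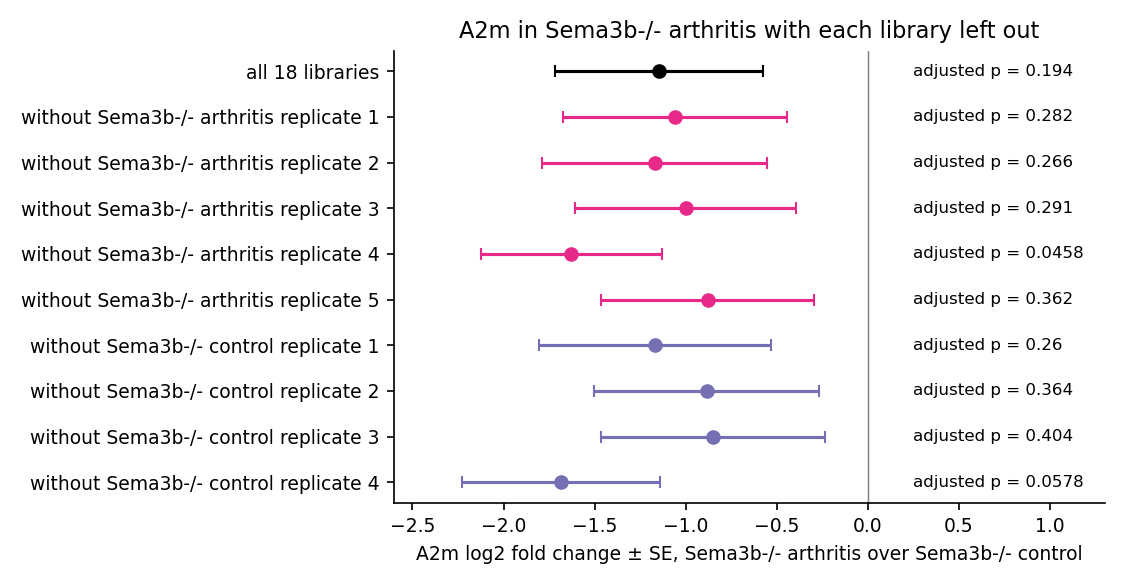
Log2 fold change of A2m in Sema3b-/- arthritis over Sema3b-/- control with its SE (horizontal axis), with all 18 libraries and with each Sema3b-/- library left out (vertical axis). Every point lies below 0, and the adjusted p printed at the right is under 0.05 only without Sema3b-/- arthritis replicate 4, at 0.0458.

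The counts behind the A2m values were small in many libraries. They were 11, 21, 12, 84 and 12 reads in Sema3b-/- arthritis, against 10, 132, 67 and 11 reads in Sema3b-/- control. The exact 95% Poisson interval of arthritis replicate 4 ran from 58.4 to 90.6 normalized counts, and those of the other arthritis libraries ended at or under 30.4. That of control replicate 4 ran from 6.59 to 23.6, below the intervals of control replicates 2 (61.7 to 87.5) and 3 (61.6 to 101). Control replicate 1, the shallowest library, had the interval 19.4 to 74.4. These intervals cover counting error only. Arthritis replicate 4 and control replicate 4 thus each differed from most of their own group by more than counting error.

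In WT forepaws, where A2m was chosen, its values in arthritis lay far below those in control. A2m had 17.7, 4.80, 5.75, 9.36 and 6.97 normalized counts in WT arthritis replicates 1 to 5, from 12, 11, 5, 11 and 11 reads. WT control replicates 1 to 4 had 242, 134, 126 and 123 normalized counts, from 219, 149, 134 and 144 reads. Every WT arthritis library lay below every WT control library. The mean in WT arthritis was 8.92 ± 5.22 (SD, n = 5), that in WT control was 156 ± 57.4 (SD, n = 4), and the control mean was 17.5 times the arthritis mean. The log2 fold change was -4.06 (SE 0.57) and -4.32 to -3.83 when each library was left out in turn. In this comparison 4.71% of all genes tested had arthritis libraries that all lay below the controls. By limma 4.21% were called at an adjusted p under 0.05, 2.64% higher and 1.58% lower.

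The 4 WT control libraries held the highest A2m values of all 18. All 4 Sema3b-/- control libraries lay lower, at 13.2 to 79.5 in Sema3b-/- control, against 123 to 242 in WT control. The log2 fold change of Sema3b-/- control over WT control was -1.80 (SE 0.60), and 2.13% of the genes tested had Sema3b-/- control libraries that all lay below WT control. With arthritis, the 2 genotypes overlapped, at 8.34 to 73.2 in Sema3b-/- arthritis and 4.80 to 17.7 in WT arthritis, a log2 fold change of 1.11 (SE 0.54). It was 0.63 without Sema3b-/- arthritis replicate 4, within a leave-out range of 0.63 to 1.38. The arthritis effect in Sema3b-/- minus that in WT was 2.91 on the log2 scale (SE 0.81). The WT libraries that chose A2m enter all of these values, so they are given without a test, and the comparisons share libraries with each other. The authors' deposited table holds -1.58 for Sema3b-/- control over WT control and 1.58 for Sema3b-/- arthritis over WT arthritis.

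Sex was unevenly spread over the groups. In Sema3b-/- females A2m had 12.1 to 73.2 normalized counts in arthritis (4 libraries), against 13.2 and 40.5 in control. In Sema3b-/- males it had 8.34 in the 1 arthritis library, against 73.7 and 79.5 in control. The females overlapped and the males did not, but 1 male arthritis library cannot show a difference between the sexes. The only WT arthritis female had 17.7, against 123 to 242 in the WT control females. With sex as a term, the A2m log2 fold change was -1.20 in Sema3b-/- arthritis (limma adjusted p = 0.195) and -3.92 in WT arthritis.

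**Figure D2:**
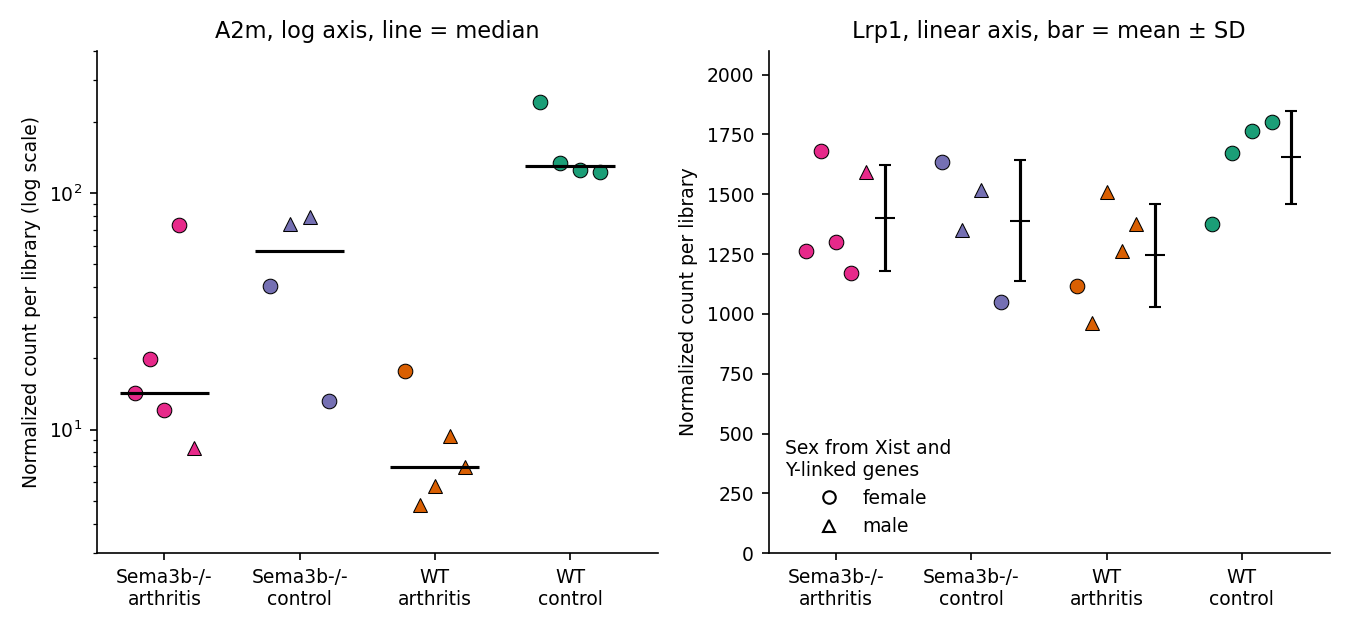
Normalized counts of A2m (left, log axis) and Lrp1 (right, linear axis) in each of the 18 libraries by group. Circles are female and triangles male libraries, lines are medians and bars mean ± SD. A2m lies at 4.80 to 17.7 in WT arthritis and 123 to 242 in WT control, while its Sema3b-/- groups overlap, and Lrp1 overlaps between all groups compared.

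Lrp1 was expressed in every library and its level hardly moved with arthritis in Sema3b-/- forepaws. It had 1263, 1680, 1301, 1170 and 1595 normalized counts in Sema3b-/- arthritis replicates 1 to 5, against 1635, 1351, 1516 and 1052 in Sema3b-/- control replicates 1 to 4. The groups covered almost the same range, and the lowest of these 9 values belonged to a control and the highest to an arthritis library. Lrp1 averaged 1402 ± 222 in Sema3b-/- arthritis (SD, n = 5) and 1389 ± 253 in Sema3b-/- control (SD, n = 4). The log2 fold change was 0.02 (SE 0.16, 95% interval -0.31 to 0.35, limma adjusted p = 0.953). The interval allows a level from 0.805 to 1.28 times that in control, and the exact two-sided permutation p was 0.905. The sign changed when Sema3b-/- control replicate 4 was left out, at -0.11.

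In WT forepaws Lrp1 had 1115, 960, 1508, 1263 and 1378 normalized counts in arthritis, against 1376, 1671, 1767 and 1804 in control. Most arthritis libraries lay below the controls, but WT control replicate 1 lay within the range of arthritis. The mean in WT arthritis was 1245 ± 215 (SD, n = 5) and that in WT control 1654 ± 194 (SD, n = 4), a log2 fold change of -0.42 (SE 0.16) given as a description. In Sema3b-/- control, the only group with several libraries of each sex, the females (1052 and 1635) lay to either side of the males (1351 and 1516). The lowest of the WT arthritis values, 960, came from the library with the most reads.

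Lrp1 did not pass the test between genotypes. In arthritis the log2 fold change of Sema3b-/- over WT was 0.17 (SE 0.15, 95% interval -0.14 to 0.49, limma adjusted p = 0.783). The exact two-sided permutation p was 0.294, with 0.00794 the smallest possible. In control it was -0.26 (SE 0.17, 95% interval -0.61 to 0.09, limma adjusted p = 0.878), with an exact permutation p of 0.143 and a smallest possible p of 0.0286. Few genes were called in either contrast, 0.0217% in arthritis and 0.0145% in control. The difference between the 2 arthritis effects on Lrp1 was 0.44 (SE 0.22). It contains the change of -0.42 between the WT groups, so it is a description without a test. Over all genes, limma called 0% for the difference between the 2 arthritis effects, against 663 genes at an unadjusted p under 0.05. For that difference edgeR called 0 and DESeq2 6.

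Scaling by the total reads of each library (CPM) shifted all genes together. It moved the median log2 fold change of all genes tested to -0.24 in WT arthritis and 0.08 in Sema3b-/- arthritis, against -0.02 and -0.01 with the deposited scaling. On that scale A2m was at -4.27 in WT arthritis and -1.06 in Sema3b-/- arthritis. Lrp1 was at -0.64 in WT arthritis and 0.11 in Sema3b-/- arthritis. Set against the shifted medians, both genes kept the direction they had with the deposited scaling.

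Marker lists of several cell types were set beside A2m. Those with the highest Spearman correlations over the libraries are shown, Schwann cell (0.73), smooth muscle and pericyte (0.72) and cartilage (0.63). The WT libraries that chose A2m enter these values. Skeletal muscle was at 0.42, bone and adipocyte at 0.41, epidermis at 0.40, fibroblast at 0.34, and endothelium and hepatocyte at 0.10. Tendon was at -0.14, monocyte and macrophage at -0.31 and neutrophil at -0.42. Schwann cell markers, such as the myelin genes Mbp and Prx, took 0.0302% to 0.0551% of counts in Sema3b-/- arthritis, against 0.0645% to 0.0970% in Sema3b-/- control. In WT they took 0.0320% to 0.0548% in arthritis and 0.0743% to 0.101% in control. The median log2 fold changes of the 10 Schwann cell markers tested were -1.28 in Sema3b-/- arthritis and -1.23 in WT arthritis.

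Smooth muscle and pericyte markers took 0.0759% to 0.0847% in Sema3b-/- arthritis, against 0.0688% to 0.105% in Sema3b-/- control. They took 0.0598% to 0.0721% in WT arthritis, against 0.0994% to 0.113% in WT control, and of 7 tested only Notch3 fell in either genotype. Cartilage markers took 0.0283% to 0.0556% in Sema3b-/- arthritis, against 0.0467% to 0.290% in Sema3b-/- control. In WT they took 0.0351% to 0.0910% in arthritis and 0.109% to 0.162% in control. Sema3b-/- control replicate 4, the control with the least A2m, also had the least Schwann cell (0.0645%) and cartilage (0.0467%) marker RNA of its group. Smooth muscle and pericyte markers did not share that order, since they were lowest in Sema3b-/- control replicate 2 (0.0688%), which had 73.7 normalized counts of A2m, and next lowest in replicate 4 (0.0691%). Sema3b-/- arthritis replicate 4, with the most A2m of its group, had the most Schwann cell (0.0551%) and smooth muscle and pericyte (0.0847%) marker RNA. Its cartilage markers were at 0.0485%, below the 0.0556% of Sema3b-/- arthritis replicate 1.

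Hepatocyte markers, of which 5 of 7 are in the table, stayed at or under 0.00165% in every library. The part of any of these cell types in the A2m values was not tested. In whole forepaw RNA, fewer cells of a type and less RNA per cell cannot be told apart.

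**Figure D3:**
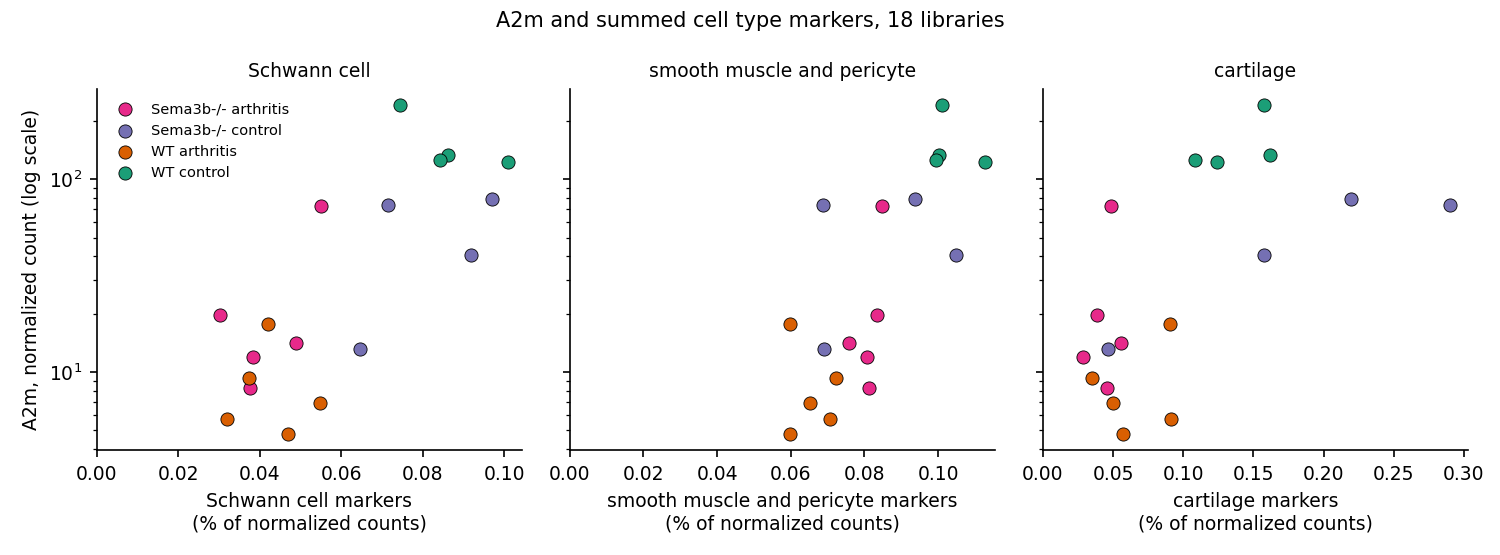
A2m (vertical log axis, normalized counts) against the summed Schwann cell, smooth muscle and pericyte, and cartilage markers (horizontal axes, % of normalized counts), 1 point for each of 18 libraries, coloured by group. These lists had the highest Spearman correlations with A2m of the cell type lists. The WT control libraries lie at the upper right for Schwann cell markers (0.0743% to 0.101%), and Sema3b-/- control replicate 4, at 13.2 normalized counts, lies at the lower left of its group for Schwann cell and cartilage markers.

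Among other members of the thioester family, complement C3 and Cd109 changed in Sema3b-/- arthritis. Of 8 listed genes only 4 were in the table and 3 were tested. Of these 1 rose and 1 fell, with a median of 0.42, against -0.01 over all genes tested. The counts of this and the following lists stand beside shares of 6.84% of all genes tested that rose and 5.55% that fell in Sema3b-/- arthritis, and 2.64% that rose and 1.58% that fell in WT arthritis. C3, the central complement protein, averaged 3123 normalized counts in Sema3b-/- arthritis, against 934 in Sema3b-/- control (log2 fold change 1.74, SE 0.26, limma adjusted p = 0.000903). Cd109, a membrane-anchored relative of A2m, averaged 644 in Sema3b-/- arthritis, against 1142 in Sema3b-/- control (-0.82, SE 0.21, adjusted p = 0.0192). The groups of each did not overlap, as for 7.13% of genes tested that were higher in this comparison and 6.11% that were lower. The Cd109 call ended without Sema3b-/- arthritis replicate 2 (adjusted p = 0.0524) or Sema3b-/- control replicate 3 (0.0665). In WT arthritis none of the 3 passed, with C3 at 0.51, Cd109 at -0.51 and complement C4b at 0.21. Cd109 was called in WT arthritis with CPM scaling (-0.73, adjusted p = 0.0351), where the median of all genes is -0.24, and without WT arthritis replicate 1 (-0.67, 0.0488).

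Of the other LDL receptor family genes, 11 of 13 were tested. In Sema3b-/- arthritis only Lrp10 fell and none rose, with a median of -0.37. That 1 of 11 is close to the 12.4% of all genes called in this comparison. Lrp10 averaged 350 ± 35.4 in Sema3b-/- arthritis (SD, n = 5) and 532 ± 90.1 in Sema3b-/- control (SD, n = 4), with a log2 difference of -0.59 (SE 0.16, limma adjusted p = 0.0231). Its call ended without Sema3b-/- arthritis replicate 1 (0.0507) or Sema3b-/- control replicate 3 (0.0587) or 4 (0.0695), and with CPM scaling (0.0966). Lrp5, a coreceptor for Wnt, was at -0.80 (adjusted p 0.0595), Lrp4, which binds agrin and sclerostin, at -0.87 (0.137), and Vldlr at -0.85 (0.176). In WT arthritis 0 of the 11 passed, with a median of -0.29, Lrp5 at -0.87 and Lrp10 at -0.52. With CPM scaling 3 of them were called lower in WT arthritis, among them Lrp10 (-0.74, adjusted p = 0.0311) and Lrp5 (-1.09, 0.0425), and 0 in Sema3b-/- arthritis. Leaving out 1 library gave 0 to 2 falls in WT arthritis, with Lrp10 called without WT arthritis replicate 3 (0.0280) and Lrp4 without WT arthritis replicate 1 (0.0477). Lrp5 was called in Sema3b-/- arthritis without Sema3b-/- arthritis replicate 1 (0.0268) or Sema3b-/- control replicate 4 (0.0273).

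Genes for the maturation, adaptors and shedding of Lrp1 moved both ways. Of 17 tested of 19 listed, 3 rose and 2 fell in Sema3b-/- arthritis, with a median of 0.19. Pid1, an adaptor that binds the NPXY motifs of Lrp1, rose by 1.02 (SE 0.19, limma adjusted p = 0.00291). The chaperone Hspa5 rose by 0.77 (SE 0.15, adjusted p = 0.00384). The endocytic adaptor Dab2 rose by 0.69 (adjusted p = 0.0391), a call that ended without WT control replicate 2, Sema3b-/- arthritis replicates 1, 2 or 5 or Sema3b-/- control replicates 2, 3 or 4 (adjusted p 0.0505 to 0.114).

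Apbb1, an adaptor that also binds App, fell in both genotypes. It averaged 84.8 ± 18.7 in Sema3b-/- arthritis (SD, n = 5) and 157 ± 33.2 in Sema3b-/- control (SD, n = 4), with a log2 difference of -0.89 (SE 0.22, limma adjusted p = 0.0141). In WT arthritis it averaged 101 ± 18.1, against 203 ± 54.5 in WT control, at -0.98 (SE 0.22, adjusted p = 0.0174). Ncstn, a subunit of gamma-secretase, which cuts the Lrp1 tail within the membrane, fell by 0.77 in Sema3b-/- arthritis (adjusted p = 0.0117). It fell by 0.75 in WT arthritis (adjusted p = 0.0282). In WT the list had 0 rises, 2 falls and a median of 0.21. With CPM scaling there were 4 falls and 0 rises in WT arthritis. Leaving out 1 library gave 0 to 2 rises and 0 to 3 falls there, with Pid1 and Hspa5 called without WT arthritis replicate 2 (adjusted p 0.0130 and 0.0359). The WT call of Apbb1 ended without WT arthritis replicate 4 or WT control replicates 2 or 3 (up to 0.0759) and with sex as a term (0.124). That of Ncstn ended without WT arthritis replicate 5 or any WT control library (up to 0.0867). Lrpap1, the chaperone that keeps ligands off Lrp1 during its folding, averaged 338 in Sema3b-/- arthritis and 254 in Sema3b-/- control (0.41, adjusted p = 0.0810).

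Among 24 other Lrp1 ligands tested of 26 listed, 4 rose and 1 fell in Sema3b-/- arthritis, with a median of 0.08. Apoe, the apolipoprotein of lipid particles, averaged 9183 ± 2229 in Sema3b-/- arthritis (SD, n = 5) and 3825 ± 444 in Sema3b-/- control (SD, n = 4). Its log2 fold change was 1.24 (SE 0.26, limma adjusted p = 0.00687). Timp1, an inhibitor of metalloproteases, averaged 6372 in Sema3b-/- arthritis, against 875 in Sema3b-/- control (2.83, SE 0.61, adjusted p = 0.00892). Plau, the urokinase protease, rose by 1.61 (adjusted p = 0.0186), a call that ended without Sema3b-/- control replicate 4 (0.0570).

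Tfpi, an inhibitor of the tissue factor pathway, rose by 0.91 (adjusted p = 0.0233) and the growth factor Pdgfb fell by 0.67 (adjusted p = 0.0261). The Tfpi call ended without Sema3b-/- arthritis replicate 2 or Sema3b-/- control replicates 1, 3 or 4 (0.0547 to 0.0740) and with edgeR (0.0504). That of Pdgfb ended without Sema3b-/- arthritis replicates 1, 2 or 5 or Sema3b-/- control replicates 1 or 3 (0.0530 to 0.0762). In WT arthritis only Apoe rose, by 1.07 (SE 0.26, adjusted p = 0.0293), none fell, and the median was 0.37. That 1 of 24 is close to the 4.21% of all genes called in WT arthritis. With CPM scaling 0 rose and 2 fell, among them Pdgfb (-0.71, adjusted p = 0.0384). Leaving out 1 library gave 0 to 4 rises, the most without WT arthritis replicate 2, where Timp1 was at 2.40 (adjusted p = 0.00152), and 0 to 1 falls.

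Of the 15 proteases listed as possible targets of A2m, 3 rose and 0 fell in Sema3b-/- arthritis, with a median of 0.39. Whether A2m traps each of them, Tpsb2 included, was not tested. Mmp3, or stromelysin, averaged 2402 normalized counts in Sema3b-/- arthritis, from 1106 to 3795, against 54.6 in Sema3b-/- control, from 40.5 to 66.5. Its log2 fold change was 5.33 (SE 0.72, limma adjusted p = 0.000903). Plau, given with the ligands, and the mast cell tryptase Tpsb2, which rose by 0.80 (adjusted p = 0.0295), were the others. The Tpsb2 call ended without Sema3b-/- arthritis replicates 1, 3 or 5 or Sema3b-/- control replicates 1, 2 or 3 (0.0525 to 0.0716). The mast cell chymase Cma1 was at 0.92 and was not called (limma adjusted p 0.0534). It was called with CPM scaling (limma adjusted p = 0.0473), with DESeq2 and in some fits with a library left out. In WT arthritis only Mmp3 rose, by 2.96 (SE 0.72, adjusted p = 0.0327), the median was 0.44, and the neutrophil collagenase Mmp8 was at 1.63 (adjusted p 0.142). Mmp3 had 130 to 2760.0 normalized counts in WT arthritis and 98.5 to 157 in WT control, so the WT groups overlapped. The overlapping library was WT arthritis replicate 2, at 130.

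On the list of other protease inhibitors and related genes, 23 of 24 were tested. Of these 5 rose and 2 fell in Sema3b-/- arthritis, with a median of -0.31. Besides Timp1 and Tfpi, these were Serpina3n, which rose by 2.06 (SE 0.31, limma adjusted p = 0.00106), the leukocyte protease inhibitor Slpi, which rose by 2.20 (adjusted p = 0.0177), and Tfpi2, which rose by 1.86 (adjusted p = 0.0398). Itih5, an inter-alpha-trypsin inhibitor heavy chain, averaged 217 ± 72.8 in Sema3b-/- arthritis (SD, n = 5) and 519 ± 102 in Sema3b-/- control (SD, n = 4), and fell by 1.31 (SE 0.31, adjusted p = 0.0118). Serpinf1, a secreted serpin that was on the list although it does not inhibit proteases, fell by 1.08 (adjusted p = 0.0431). The Slpi call ended without Sema3b-/- control replicate 3 (0.0590). Tfpi2 lost its call without WT control replicate 3, Sema3b-/- arthritis replicates 2, 3 or 5 or Sema3b-/- control replicates 2, 3 or 4 (up to 0.127). Serpinf1 lost its call without any library other than WT arthritis replicates 1, 2 and 3 and Sema3b-/- control replicates 1 and 4, up to 0.137 without Sema3b-/- control replicate 3.

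In WT arthritis 4 of these inhibitors rose and 1 fell, with a median of 0.13. Serpinb6a, an intracellular serpin, averaged 7364 ± 1146 (SD, n = 5) in WT arthritis, against 4247 ± 442 (SD, n = 4) in WT control, and rose by 0.79 (SE 0.14, limma adjusted p = 0.00567). Serpinb1a, an inhibitor of neutrophil proteases, rose by 0.81 (adjusted p = 0.0285), Serpina3n by 1.19 (0.0388) and Slpi by 2.25 (0.0302). Reck, a membrane inhibitor of metalloproteases, fell by 0.76 (adjusted p = 0.0475). With CPM scaling the split was 1 rise and 3 falls, with Itih5 at -1.02 (adjusted p = 0.0369), against 5 rises and 1 fall in Sema3b-/- arthritis. Leaving out 1 library gave 1 to 7 rises and 0 to 3 falls in WT arthritis, the most rises without WT arthritis replicate 2 and the most falls without replicate 1.

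Of 12 acute phase and Il6-Stat3 genes, all tested, 5 rose and 0 fell in Sema3b-/- arthritis, with a median of 0.84. Saa3, an inducible serum amyloid A, averaged 2307 in Sema3b-/- arthritis, from 784 to 3699.6, against 11.0 in Sema3b-/- control, from 5.94 to 17.9 (7.51, SE 1.27, limma adjusted p = 0.00280). Socs3, the feedback inhibitor of Stat3 signalling, rose by 1.70 (adjusted p = 0.00888) and haptoglobin, Hp, by 2.18 (adjusted p = 0.0250). The cytokine Il6 had 7.58 to 29.6 normalized counts in Sema3b-/- arthritis, against 0 to 3.60 in Sema3b-/- control, and rose by 3.29 (adjusted p = 0.0374), and Serpina3n was the fifth. The Hp call ended without Sema3b-/- arthritis replicates 1, 2 or 5 or Sema3b-/- control replicates 1, 3 or 4 (0.0522 to 0.0705). That of Il6 ended without any Sema3b-/- library other than control replicate 4 (0.0532 to 0.0944) and with edgeR (0.0834).

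In WT arthritis 4 acute phase genes rose and 0 fell, with a median of 0.70. They were Saa3 (5.19, SE 1.27, limma adjusted p = 0.0340), Hp (2.49, 0.0279), Socs3 (1.57, 0.0279) and Serpina3n. Saa3 had 447, 12.6, 3575, 3991 and 1645 normalized counts in WT arthritis replicates 1 to 5, against 6.63 to 33.8 in WT control. WT arthritis replicate 2 thus lay within the control range, and the other 4 lay above it. Il6 had 0 to 57.5 normalized counts in WT arthritis, against 0 in every WT control library. It was not called there by limma (adjusted p 0.0997), but was called with edgeR (adjusted p = 0.0342) and DESeq2 (adjusted p = 0.000421). With CPM scaling 2 of the 12 rose in WT arthritis, and leaving out 1 library gave 0 to 5 rises. With sex as a term 0 of the 12 were called in WT arthritis, and 5 in Sema3b-/- arthritis.

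Markers of immune cells were set beside the acute phase genes, the proteases and the ligands. Monocyte and macrophage markers took 0.144% to 0.240% of counts in Sema3b-/- arthritis, against 0.0630% to 0.115% in Sema3b-/- control, and 0.0811% to 0.231% in WT arthritis, against 0.0900% to 0.108% in WT control. Of 11 tested, 9 rose in Sema3b-/- arthritis and 3 in WT arthritis. In WT the groups overlapped, with arthritis replicates 1 and 2 below every control. Neutrophil markers took 0.131% to 0.701% in Sema3b-/- arthritis, against 0.0849% to 0.463% in Sema3b-/- control, and 0.0512% to 0.671% in WT arthritis, against 0.0848% to 0.146% in WT control. The neutrophil shares overlapped between arthritis and control in both genotypes. Of 7 neutrophil markers, 1 rose in each genotype. On the other lists, 4 of 9 bone, 3 of 9 cartilage, 2 of 10 endothelial and 1 of 8 adipocyte markers fell in Sema3b-/- arthritis and 1 of 12 fibroblast markers rose, and in WT arthritis 1 bone marker fell. None of the tendon, skeletal muscle, epidermal or hepatocyte markers tested was called in arthritis of either genotype. All 12 skeletal muscle markers were nevertheless negative in both genotypes, with medians of -1.73 in Sema3b-/- arthritis and -0.81 in WT arthritis. All 10 epidermal markers were negative too, with medians of -1.54 and -1.83 in that order. Of 6 tendon markers, 4 were negative in Sema3b-/- arthritis and 1 in WT arthritis. The part of these cells in the values of the listed genes was not tested.

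Few of the WT calls on these lists held throughout. Of 12 list genes called in WT arthritis, only Serpinb6a kept its call under every alternative, against 12 of 24 in Sema3b-/- arthritis. Over all genes, 582 were called in WT arthritis, against 133 with sex as a term and 149 to 1112 with a library left out. In Sema3b-/- arthritis 1710 were called, against 1839 and 975 to 1913 in that order. How many of all called genes held under every alternative was not counted, so the list counts show nothing particular to these genes. The 12 list genes that held in Sema3b-/- arthritis were Apbb1, Apoe, C3, Hspa5, Itih5, Mmp3, Ncstn, Pid1, Saa3, Serpina3n, Socs3 and Timp1. The WT calls of Apoe, Hp, Mmp3, Saa3, Serpina3n and Slpi each ended without WT arthritis replicate 3, 4 or 5 or any 1 WT control library, with adjusted p of up to 0.110 by limma. Serpinb1a lost its WT call without WT arthritis replicates 3 or 4 or any WT control library (up to 0.0955), and Socs3 without WT arthritis replicates 4 or 5 or any WT control library (up to 0.0786). Reck lost its WT call without any library other than WT arthritis replicate 2, Sema3b-/- arthritis replicate 2 and Sema3b-/- control replicates 1 and 4, up to 0.154 without WT control replicate 3. Sex as a term ended every WT call but those of Serpinb6a and Ncstn, with adjusted p of 0.101 to 0.337. CPM scaling ended the WT calls of Apoe, Serpina3n, Serpinb1a, Slpi and Socs3 (0.0587 to 0.122). It also ended the Sema3b-/- calls of Dab2, Lrp10, Pdgfb, Serpinf1 and Tfpi2 (0.0550 to 0.105). Dab2, Pdgfb, Tfpi2, Serpinf1, Il6 and Reck were named after their values were seen, to complete the counts.

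**Figure D4:**
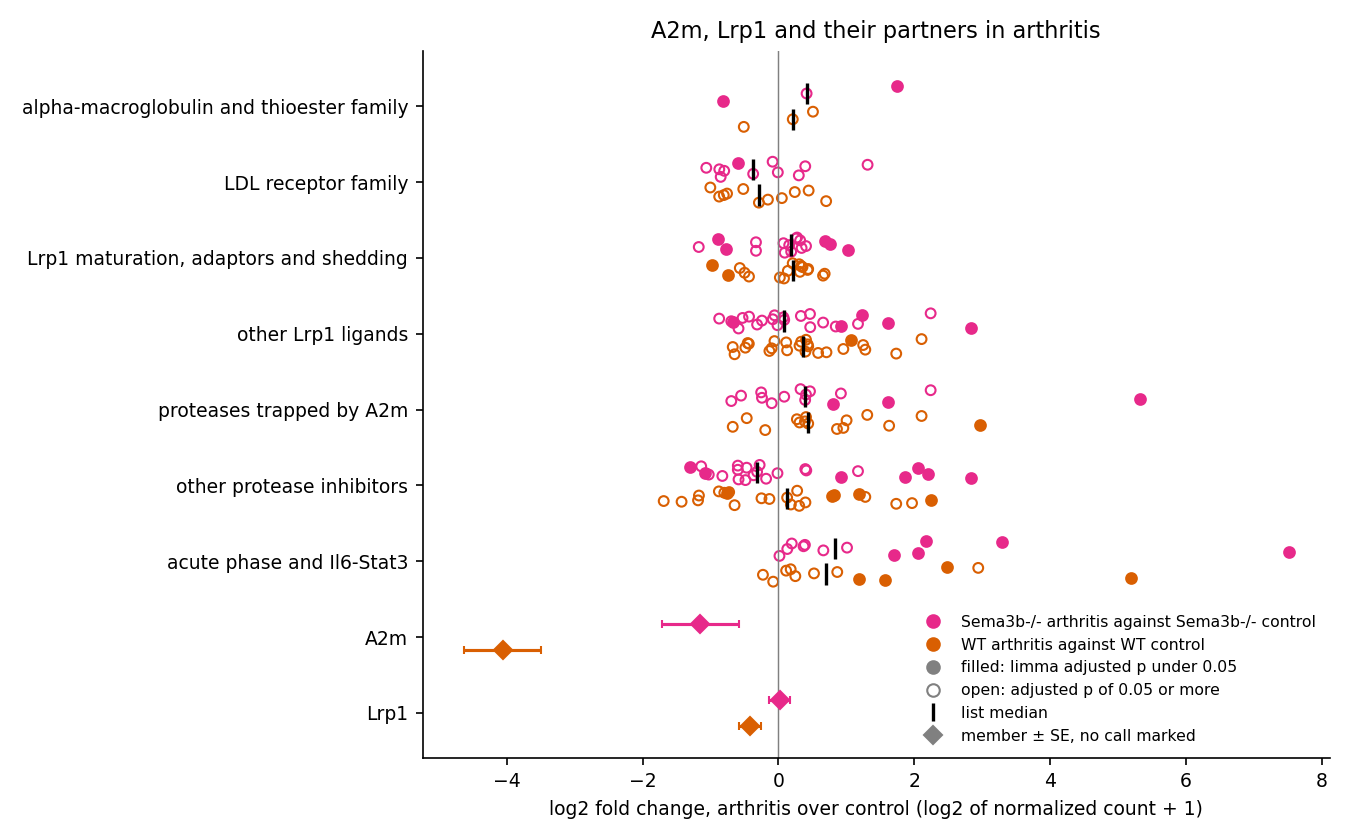
Log2 fold change, arthritis over control, of every tested gene on 7 lists of A2m and Lrp1 partners, with Sema3b-/- above WT in each list. Filled points passed limma at an adjusted p under 0.05, vertical bars are list medians, and diamonds are A2m and Lrp1 with SE and no call marked. Saa3 and Mmp3 lie farthest right, at 7.51 and 5.33 in Sema3b-/- arthritis, and A2m in WT lies farthest left, at -4.06.

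The genes whose levels followed A2m most closely over the 18 libraries were Cbfa2t3 and Rnf44 (Spearman 0.88 each), Spen (0.86), Cic and Mll2 (0.85 each), Phf2 (0.83), and Setd1b and Prrc2a (0.82 each). They were the 8 highest of the other genes among the 13809 tested. After the group means were removed, the values were 0.75 for Rnf44, 0.74 for Phf2, 0.71 for Cic and 0.60 for Cbfa2t3. They were 0.47 for Mll2, 0.44 for Prrc2a, 0.43 for Spen and 0.15 for Setd1b. Setd1b thus followed A2m between the groups far more than within them, and Mll2, Prrc2a and Spen did so to a lesser degree. Cbfa2t3, a transcriptional corepressor, had 122 to 174 normalized counts in Sema3b-/- arthritis, against 145 to 293 in Sema3b-/- control, and 85.1 to 170 in WT arthritis, against 190 to 245 in WT control. The spread of these genes between groups was much narrower than that of A2m.

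Lrp1 had other companions. Fads1, a fatty acid desaturase, was nearest (Spearman 0.89, and 0.93 with the group means removed), followed by Vwa1 (0.81), Tmem184b (0.80) and Rasa4 (0.79). Fam222b, Trim46, Hsd3b7 and Fam168b were at 0.75 to 0.76. Fads1 averaged 217 normalized counts in Sema3b-/- arthritis, against 264 in Sema3b-/- control, and 210.0 in WT arthritis, against 277 in WT control. A2m and Lrp1 themselves had a Spearman correlation of 0.47, and -0.02 with the group means removed. All these values share the 18 libraries, with their depth, sex and tissue make-up, and are descriptions.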

How the data were processed

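Total RNA of 18 mouse forepaws was barcoded, amplified and sequenced by CEL-seq, per the labels' protocols. Reads were aligned with BWA to mm10 and analysed with DESeq2 1.32, per the submitters' processing notes. For the counter, the counting annotation and any removal of duplicate molecules, the sources used here name nothing. The deposited table gives a signal, the normalized count, for each gene and library. The authors' deposited comparisons give a log2 fold change, a score and p-values. Whole reads were recovered from the signal, with 100% of values within 0.02 of a read. The main test was limma-trend (limma 3.58.1, R 4.3.3) with robust empirical Bayes on log2(value + 1), in 1 model of 4 group means. Genes at 10 or more in at least 4 libraries were tested (13809), with Benjamini-Hochberg adjustment over all of them and calls at an adjusted p under 0.05. Fold changes on this scale understate those of low genes. The labels do not state that libraries come from separate animals, so p-values reflect spread between libraries, which may be technical. The 32 pairs of libraries within groups differed beyond counting noise, at 9.59 to 197 chi-square per degree of freedom.

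Alternatives were pseudocounts of 0.5 and 5, no filter, edgeR 4.0.16 and DESeq2 1.42.0 on the reads, CPM scaling, sex as a term, a replicate block, exact permutation and leaving out each library. Sema3b-/- arthritis replicate 5 has a column name ending in Ct, and its group was taken from its title and treatment label. The members and the gene lists were chosen with earlier results of these data known. The text names the 4 genes of each list with the lowest p in Sema3b-/- arthritis, the 2 in WT arthritis, and the 8 genes most like each member. Adgre1 and Cnmd were read under older symbols. Sex was read from Xist and Y-linked genes. The limma step was tested on simulated data.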

Additional observations from a re-analysis of the deposited data

Results flagged for a closer look

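Dixon's gap test at the 95% level was run on 6 groups of values. In 1 of the 6 groups, 1 library stood far from the others of its group. Chance meets that level in about 1 of 20 groups where values are normally distributed. The gap was taken on normalized counts, and the flag holds for that scale only. Whether it stands on the log2 scale of the limma fits was not tested. A2m in Sema3b-/- arthritis replicate 4 was at 73.2 normalized counts, with the other 4 at 8.34 to 19.9 (gap over range 0.822, critical value 0.710). The A2m values of the WT groups were left out, since they chose the gene.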

How the results depend on the processing

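A2m stayed negative in Sema3b-/- arthritis under every alternative, from -1.68 to -0.85 when each library was left out and from -1.20 to -0.99 otherwise. Its adjusted p passed the threshold only without Sema3b-/- arthritis replicate 4 (0.0458). Lrp1 in Sema3b-/- arthritis changed sign with the replicate block (-0.027) and within the leave-out range (-0.11 to 0.10), without a call. C4b in WT arthritis, not called, turned to -0.0028 with CPM scaling, which moves the median of all genes there to -0.24, and to -0.23 with sex as a term. Genes called in WT arthritis numbered 582, against 1279 with DESeq2, 133 with sex as a term, 196 with the replicate block and 149 to 1112 when a library was left out. In Sema3b-/- arthritis they numbered 1710, against 1020 with the block and 975 to 1913 when a library was left out. Between genotypes they were 3 in arthritis, 94 with DESeq2, and 2 in control, from 0 to 5. The replicate numbers did not pair the libraries, since 7 of 25 pairs correlated over 0.1 (-0.66 to 0.41) and 3 of 18 libraries were closest to their own number; the block gave A2m -0.99 in Sema3b-/- arthritis (adjusted p = 0.345). The causes were not tested. In WT arthritis, 5 to 12 A2m reads per library limit the precision.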
